A study of Mus musculus with 40 samples.

Results

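Bone marrow taken 5 days after cyclophosphamide was compared with bone marrow taken 1 day after it, in mice of the inbred strain DBA/2. Of the 40 arrays of the series, 20 belong to this comparison, which are 2 technical arrays from each of 10 mice out of 20 (5 mice on day 1 and 5 on day 5). Both groups had received 83 mg/kg cyclophosphamide by intraperitoneal injection and differ in the time from treatment to harvest. The other 10 mice are 5 untreated controls and 5 mice harvested on day 2, and they entered the fit only through the shared estimate of the spread between mice. RNA of whole bone marrow cells was labelled with Cy5 and hybridised against a common Cy3 reference, which one label calls a pool of untreated marrow and another describes as coming from treated mice. Whichever holds, the reference divides out of a difference between 2 groups. Each value is a log ratio to that reference, read here as log2 of sample over reference. The dyes in the labels make that direction the likely one, but neither it nor the log base is stated with the values, so fold changes rest on base 2, and an inverted ratio would turn every sign. A gene entered when at least 3 mice of each group had a value, which left 5392 of 13027 genes and unnamed probes, of them 3992 with a gene symbol. Of these 5392, 3448 were measured in all 5 mice of both groups.

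Cyclophosphamide is an alkylating prodrug whose active products cross-link DNA, which activates p53 in dividing cells and kills many of them. Bone marrow holds the precursors of neutrophils, monocytes, red cells, platelets and B lymphocytes beside resident macrophages, vessels and stroma, so the RNA of whole marrow follows both what each cell transcribes and how many of each cell there are. In these bulk samples, fewer cells of a type and less RNA per cell cannot be told apart. After marrow injury of this kind the surviving progenitors divide again and granulocyte and monocyte precursors reappear before mature cells do.

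On day 5, 1348 genes and probes differed from day 1 at an adjusted p under 0.05 (limma, Benjamini-Hochberg over all 5392), which is 25% of those tested. Of these, 648 were higher on day 5 (12%) and 700 lower (13%). Changes of at least 2-fold were found for 40 higher (0.742%) and 83 lower (1.54%). In 911 (16.9%) the mice of the 2 groups did not overlap at all, 444 with day 5 higher (8.23%) and 467 with day 5 lower (8.66%). The median absolute difference among the called was 0.55 on the log2 scale, against a median standard error of 0.13. Day 5 mice had 5776.6 ± 1107 probes measured and day 1 mice 6331.2 ± 500.5 (mean ± SD, n = 5 each), a difference that did not pass the test (exact 2-sided permutation p = 0.349; the smallest p this design allows is 0.00794). Array medians lay between -0.0151 and 0.00499, as they do in arrays centred on their median. Arrays have no read depth, and what limits the precision here was not tested.

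**Figure D1:**
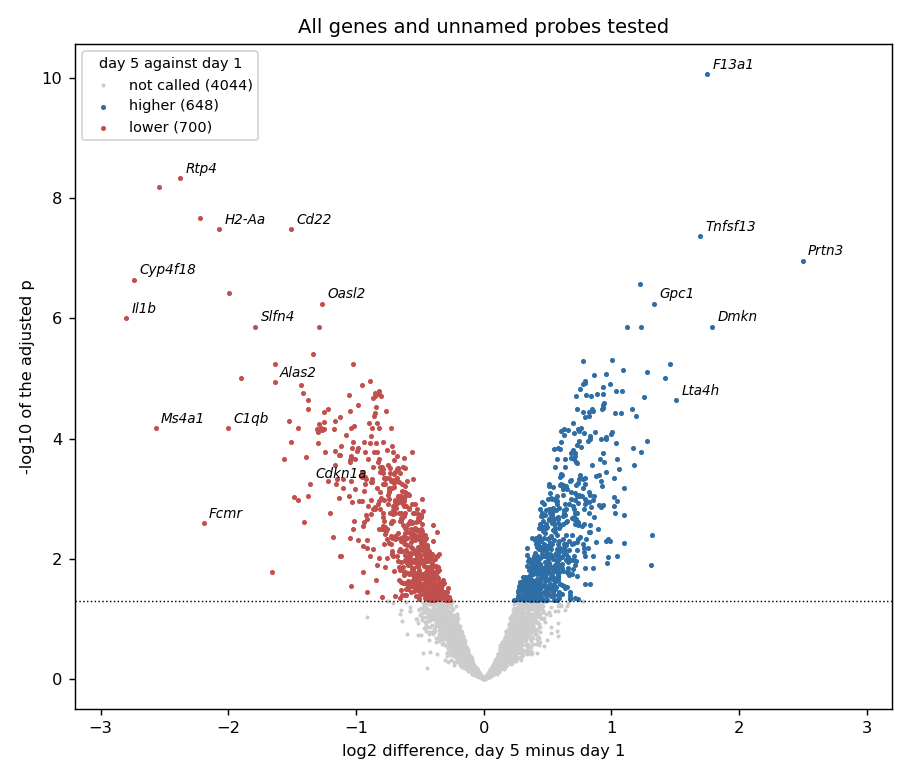
Log2 difference between day 5 and day 1 (horizontal axis) against minus log10 of the limma adjusted p (vertical axis) for all 5392 genes and unnamed probes tested. Points are genes or probes, blue for the 648 called higher on day 5, red for the 700 called lower, and the dotted line marks an adjusted p of 0.05. F13a1, Tnfsf13 and Prtn3 stand at the upper right, and Rtp4, H2-Aa, Cyp4f18 and Il1b at the upper left.

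Genes of granulocyte and monocyte precursors were among the largest rises. Prtn3, the proteinase 3 that promyelocytes store in their primary granules, had log2 ratios of -0.52, -1.16, -0.54, -1.37 and 0.06 in day 1 mice 1 to 5 and of 1.08, 2.34, 1.94, 1.66 and 1.94 in day 5 mice 1 to 5. The groups did not overlap, and the difference was 2.50 ± 0.23 (log2 difference ± SE; 5.64-fold; adjusted p = 1.09e-07). F13a1, the A subunit of coagulation factor XIII made by monocytes and their precursors, had the smallest adjusted p of the genes named here. Its log2 ratios were -0.95, -1.28, -0.87, -1.22 and -1.11 on day 1, and 0.56, 0.63, 0.90, 0.58 and 0.62 on day 5. Within each group the 5 mice lay close together, and the difference of 1.75 ± 0.11 (3.36-fold, adjusted p = 8.5e-11) was many times that spread. In untreated controls F13a1 stood at -0.18 ± 0.14 (mean ± SD, n = 5), above day 1 (adjusted p = 2.8e-05) and below day 5 (adjusted p = 2.4e-05; 2.54% of genes and probes were called between day 5 and control, and 18.9% between day 1 and control).

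Granulocyte precursor and primary granule genes had 7 measured members of the 22 listed. On day 5, 4 were higher, 1 was lower and 2 were not called, with a median log2 difference of 0.74 against 0.02 over all genes and probes tested. Of all genes and probes tested, 12% were called higher and 13% lower, the shares to set beside this list and those below. Besides Prtn3, the members that rose were Plac8, a small cysteine-rich protein of immature myeloid cells, by 1.26 ± 0.18 (adjusted p = 2.05e-05), Cd63, a tetraspanin of lysosome and primary granule membranes, by 0.93 ± 0.13 (adjusted p = 2.76e-05), and Nkg7, a granule membrane protein of cytotoxic lymphocytes that myeloid precursors also make, by 0.74 ± 0.15 (adjusted p = 0.00119). The member that fell was Csf3r, the receptor for granulocyte colony-stimulating factor, from 0.80, 0.10, 0.24, 0.41 and 0.55 in the 5 day 1 mice to -0.53, -0.74, -0.65, -0.42 and -0.48 in the 5 day 5 mice (difference -0.98 ± 0.14, adjusted p = 2.76e-05). The 2 groups did not overlap for Csf3r, which is present on precursors and increases as neutrophils mature. Mpo and Elane, the other well known primary granule genes, had values in too few mice to be tested.

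Monocyte genes had 11 measured members of 35, of which 5 were higher and none lower, with a median log2 difference of 0.29. The same 5 had mice that did not overlap. Of all genes and probes tested, 12% were called higher, and 8.23% had day 5 higher without overlap. They were F13a1, Lgals1 (galectin-1, a carbohydrate-binding protein) at 1.28 ± 0.21 (4 against 5 mice), the membrane proteins Ms4a6c at 1.23 ± 0.13 and Ms4a6b at 0.99 ± 0.13, and the chemokine gene Ccl9 at 0.79 ± 0.21 in 3 against 4 mice (log2 differences ± SE; adjusted p = 0.000109, 1.36e-06, 1.23e-05 and 0.00893). Ms4a6c had values of -0.07, -0.33, 0.11, 0.07 and -0.28 on day 1 and 0.99, 1.14, 1.44, 1.14 and 0.93 on day 5. Every day 5 mouse was above every day 1 mouse, with a gap wider than the range of either group. The list median was between 0.44 and 0.59 without day 5 mouse 2, 3, 4 or 5 in turn, and 0.25 without day 1 mouse 2.

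Mature neutrophil receptors and enzymes moved the other way in most called members. Of 16 measured (37 listed), 7 were lower, 2 higher and 7 not called, with a median of -0.37 (-0.58 without day 1 mouse 2, and -0.10 over the 11 members measured in all 10 mice). Il1b, the inflammatory cytokine interleukin 1 beta, had the largest fall of the whole comparison. Its values were 1.18, 0.72, 1.43, 1.23 and 1.08 on day 1 and -1.22, -2.33, -1.20, -2.98 and -0.62 on day 5. All day 1 mice were far above all day 5 mice, and the difference was -2.80 ± 0.30 (6.96-fold lower; adjusted p = 9.95e-07). The gene is on the array as 2 probes, which gave -3.16 over 5 mice each and -1.17 over the 1 day 1 mouse and 2 day 5 mice where the weaker probe was measured. The interleukin 1 receptor antagonist Il1rn, which blocks the same receptor, fell by 1.30 on the log2 scale (SE 0.21, adjusted p = 0.000119).

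Further members of this list that fell were Slfn4, a schlafen gene of myeloid cells, at -1.79 ± 0.20, the chemokine gene Ccl6 at -1.38 ± 0.27 in 5 against 3 mice, and Csf3r. In Slfn4 the day 1 mice read 1.09, 0.87, 1.12, 1.86 and 1.38 and the day 5 mice -0.28, -0.92, -0.24, -0.43 and -0.73, with no overlap (adjusted p = 1.36e-06). The 2 members that rose were Lta4h and Trem3, the latter named after its values were seen. Lta4h encodes leukotriene A4 hydrolase, the enzyme that makes the neutrophil attractant leukotriene B4. It went from -0.43, -1.27, -0.77, -0.51 and -0.58 on day 1 to 0.54, 0.85, 0.81, 1.44 and 0.32 on day 5 (difference 1.51 ± 0.21, adjusted p = 2.31e-05). Cyp4f18, the cytochrome P450 that in mouse neutrophils oxidises leukotriene B4, changed in the opposite direction. Its day 1 values of 0.84, -0.34, 0.47, 1.21 and 0.43 became -2.05, -2.83, -2.93, -1.75 and -1.50 on day 5, a difference of -2.74 ± 0.27 (6.66-fold lower, adjusted p = 2.26e-07). Lta4h and Cyp4f18 thus moved in opposite directions, each with groups that did not overlap. Other genes that make or break down this lipid were not among those named. Pla2g7, which inactivates platelet-activating factor, fell by 1.34 (SE 0.16, adjusted p = 3.92e-06).

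Secondary and tertiary granule genes are made by the later myelocyte and metamyelocyte stages. Of 15 measured (33 listed) 3 were higher, 2 lower and 10 not called, shares near the 12% and 13% of all genes and probes. Their median of 0.29 lay between those of the granulocyte precursor and mature neutrophil lists. The difference for lactoferrin (Ltf) was 0.41 ± 0.19 (adjusted p = 0.113), for Ngp, the neutrophilic granule protein, 0.26 ± 0.23 (adjusted p = 0.442), and for the surface antigen gene Cd177 0.32 ± 0.16 (adjusted p = 0.16). In all of these the groups overlapped. Ltf read 0.33, -0.78, -0.40, 0.37 and -0.55 on day 1 and 0.31, -0.12, 0.10, 0.66 and 0.08 on day 5, whereas the day 2 mice stood at -1.93 ± 0.24 (mean ± SD). Lysozyme (Lyz2, 0.74 ± 0.27, adjusted p = 0.0467), the calprotectin subunit S100a9 (0.72 ± 0.26, adjusted p = 0.0456) and the annexin Anxa1 (0.83 ± 0.27, adjusted p = 0.0265) passed the threshold narrowly, with overlapping groups. Anxa1 sat on 3 day 1 arrays and 0 day 5 arrays at a value that many bright probes shared, as at a scanner's ceiling (Ngp on 5 and 2), and with such values left out it was no longer called. The gelatinase gene Mmp9 (-1.05 ± 0.26, adjusted p = 0.00462) and Padi4, which citrullinates histones in neutrophils (-0.84 ± 0.25, adjusted p = 0.0224; not called without day 5 mouse 1), were lower. Without day 1 mouse 2 or without day 5 mouse 4 no member was called higher (limma), and without day 1 mouse 3, day 1 mouse 5, day 5 mouse 2 or day 5 mouse 5 there was 1. S100a9 was 0.47 without day 5 mouse 4.

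**Figure D2:**
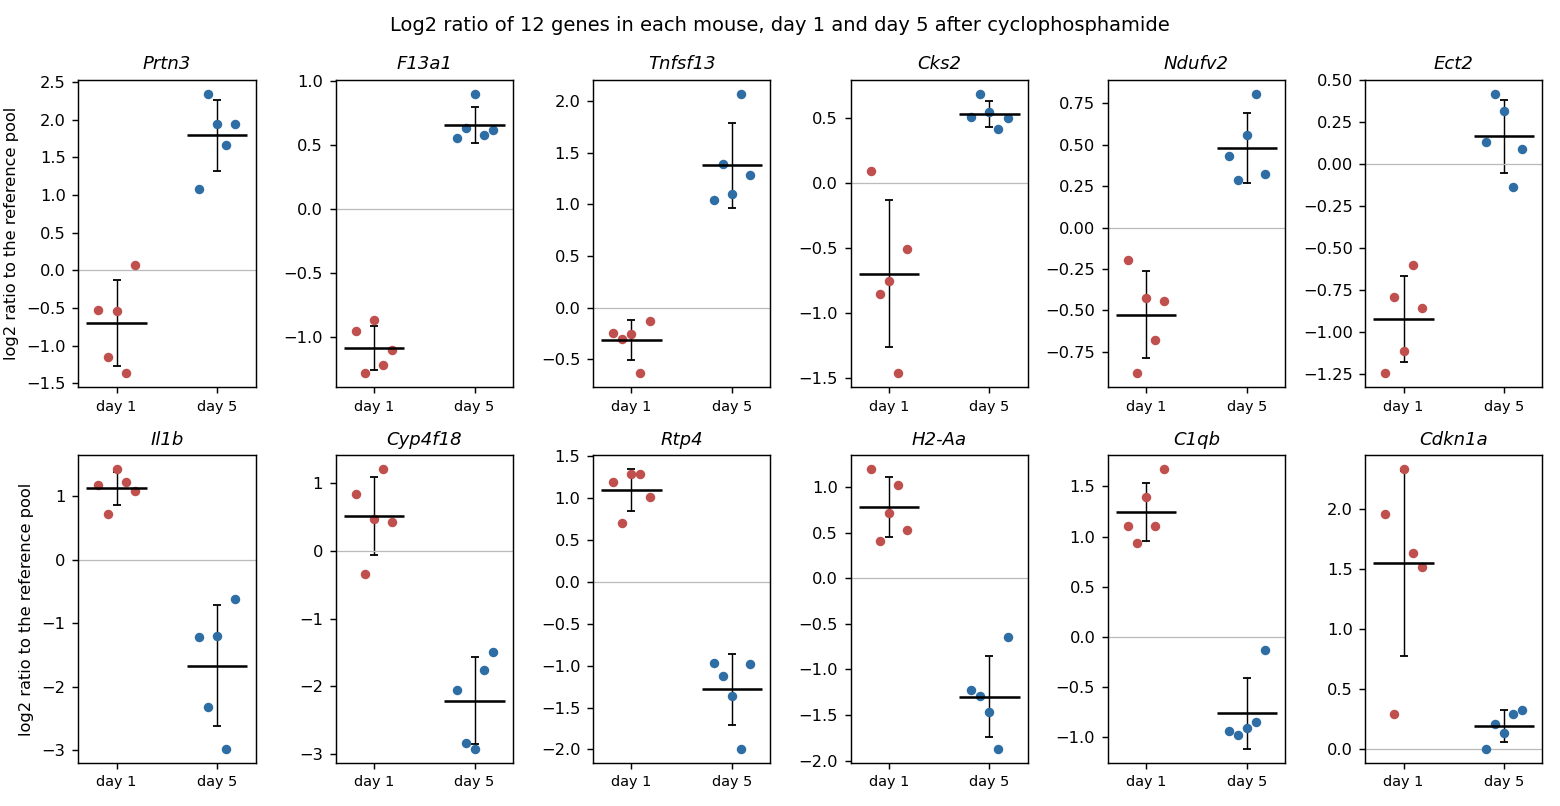
Log2 ratio to the reference pool (vertical axis, a separate scale in each panel) of 12 genes in each of the 5 day 1 mice (red) and 5 day 5 mice (blue). Bars are group means with SD. The groups are apart in every panel except Cdkn1a, where day 1 mouse 2 at 0.29 lies among the day 5 mice.

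The p53 targets and apoptosis genes were lower on day 5. Of the 30 listed, 10 were measured. Of these, 7 were called lower, none higher and 3 not called, with a median log2 difference of -0.52. Cdkn1a, which encodes the p21 inhibitor of cyclin-dependent kinases and is the classical p53 target, read 1.97, 0.29, 2.33, 1.64 and 1.52 on day 1 and 0.00, 0.21, 0.13, 0.29 and 0.32 on day 5. Of the day 1 mice, 4 were well above every day 5 mouse and day 1 mouse 2 was among them, so that the groups overlapped. The difference was -1.36 ± 0.26 (2.57-fold lower, adjusted p = 0.000566). The day 5 mean was 0.19 ± 0.13 and the control mean -0.08 ± 0.09 (mean ± SD, limma adjusted p = 0.85). That test uses a spread pooled over all groups, to which the widely spread day 1 mice add. It therefore cannot show whether Cdkn1a was back at the control level on day 5.

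Trp53inp1, a p53-induced regulator of stress responses and autophagy, fell by 1.26 (SE 0.19, adjusted p = 7.1e-05) in 3 against 4 mice. Ddit4, an inhibitor of mTORC1, fell by 1.18 (SE 0.29, adjusted p = 0.00445), with overlapping groups. Tnfrsf10b, a death receptor for TRAIL, was 0.15, 1.06, 1.04, 0.27 and 0.87 on day 1 and -0.16, 0.00, 0.06, -0.17 and 0.11 on day 5. The stress sensor gene Sesn2 was 0.07, 0.75, 0.98, 0.51 and 0.18 and then -0.14, 0.01, -0.15, -0.11 and -0.20. In both, the day 5 mice lay close to 0 and close to each other, and the day 1 mice were spread above them (Tnfrsf10b -0.71 ± 0.15, adjusted p = 0.00154; Sesn2 -0.62 ± 0.15, adjusted p = 0.00431). Over the 9 members measured in all 10 mice, the mean log2 ratio was 0.50, 0.18, 0.71, 0.39 and 0.57 in the day 1 mice and between -0.10 and 0.08 in the day 5 mice. Leaving out day 1 mouse 3, 4 of 9 measured members were called. Mdm2 had no value in any mouse of either group.

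Most measured genes of mitosis and cytokinesis were higher on day 5. Of 48 listed, 15 were measured. Of these, 10 were higher, none lower and 5 not called, with a median log2 difference of 0.66. In 7 the mice of the groups did not overlap, beside 8.23% of all genes and probes with day 5 higher. The promoters of 3 of the genes that rose are shown because they carry the elements best known from cell cycle promoters, the CCAAT box and the TTTGAA element. The RefSeq windows on GRCm38.p6 hold 300 bases, most of them before the start of the transcript. Matches on either strand are in capitals (a match on the other strand reads ATTGG or TTCAAA), and neighbouring matches of the motifs can share an end base. Ect2 has 2 entries, and the first is shown.
Cks2, chr13:51644982-51645281, plus strand: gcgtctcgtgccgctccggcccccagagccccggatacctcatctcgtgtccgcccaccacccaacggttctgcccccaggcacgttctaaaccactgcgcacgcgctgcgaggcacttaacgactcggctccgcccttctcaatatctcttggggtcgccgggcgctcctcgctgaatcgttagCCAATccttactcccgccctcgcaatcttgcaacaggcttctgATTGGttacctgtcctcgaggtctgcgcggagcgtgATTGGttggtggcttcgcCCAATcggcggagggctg
Ect2, chr3:27153829-27154128, minus strand: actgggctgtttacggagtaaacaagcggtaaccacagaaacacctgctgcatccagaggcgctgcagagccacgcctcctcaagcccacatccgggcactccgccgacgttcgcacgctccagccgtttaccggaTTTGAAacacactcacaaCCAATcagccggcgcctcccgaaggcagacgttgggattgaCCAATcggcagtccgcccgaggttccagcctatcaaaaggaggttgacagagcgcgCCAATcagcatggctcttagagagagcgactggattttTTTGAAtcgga
Cdk1, chr10:69352863-69353162, minus strand: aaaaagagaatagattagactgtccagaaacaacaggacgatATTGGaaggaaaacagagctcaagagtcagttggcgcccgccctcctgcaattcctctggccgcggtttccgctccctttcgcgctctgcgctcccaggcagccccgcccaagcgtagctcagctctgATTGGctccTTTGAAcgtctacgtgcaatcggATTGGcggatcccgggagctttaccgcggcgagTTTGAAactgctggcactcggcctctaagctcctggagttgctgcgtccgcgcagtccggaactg
Cks2 held 4 CCAAT matches and no TTTGAA, whereas Ect2 and Cdk1 each held 3 CCAAT and 2 TTTGAA matches. Among the 8 mitosis genes that rose and have an entry, 7 had a CCAAT and 6 a TTTGAA match. Among the 5 measured members with an entry that were not called, 4 had each. Of all 27025 genes with an entry, 41.1% had a CCAAT and 20.2% a TTTGAA match. A match is a description of these letters and not a bound site.

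Cks2, a small subunit that binds cyclin-dependent kinases, read 0.09, -0.86, -0.76, -1.47 and -0.51 on day 1 and 0.50, 0.68, 0.55, 0.42 and 0.49 on day 5. The day 1 mice were spread over more than the whole range of the day 5 mice and lay below all of them (1.23 ± 0.21, adjusted p = 0.000167). Ect2, the exchange factor that activates RhoA for cytokinesis, read -1.24, -0.79, -1.11, -0.60 and -0.86 and then 0.13, 0.42, 0.32, -0.14 and 0.09 (1.08 ± 0.15, adjusted p = 1.59e-05). For Cdk1, the kinase that drives entry into mitosis, the day 1 values of -0.42, -0.90, -0.63, -0.06 and -0.58 became 0.44, 0.47, 0.43, 0.36 and 0.28 (0.91 ± 0.15, adjusted p = 0.000102). Nuf2, a kinetochore subunit (0.88 ± 0.12, adjusted p = 1.79e-05), and Smc4, a condensin subunit (0.79 ± 0.10, adjusted p = 1.09e-05), also rose with groups that did not overlap. On day 5 these 5 genes did not differ detectably from controls (adjusted p from 0.62 for Nuf2 to 0.98 for Smc4). Over 11 members measured in all 10 mice the list mean was -0.35, -0.61, -0.76, -0.49 and -0.63 on day 1 and 0.17, 0.18, 0.14, 0.02 and 0.01 on day 5.

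DNA replication and nucleotide supply genes had 20 measured members of 44. All 20 differences were above 0, 9 were called higher and none lower, with a median of 0.40. Asf1b, a histone chaperone (0.92 ± 0.18, adjusted p = 0.000626), Dut, which removes dUTP (0.88 ± 0.16, adjusted p = 0.000427), Pcna, the sliding clamp of DNA polymerases (0.82 ± 0.13, adjusted p = 0.000109), Mcm4, a subunit of the replicative helicase (0.74 ± 0.15, adjusted p = 0.000922), and Tyms, which makes thymidylate (0.72 ± 0.14, adjusted p = 0.000817), led the list. Pcna read -0.64, -1.22, -0.93, -0.51 and -1.03 on day 1 and 0.07, -0.13, 0.04, -0.39 and 0.16 on day 5, with no overlap. Of 6 measured DNA repair genes (40 listed), 2 rose and 4 were not called: H2ax, the histone variant phosphorylated at double-strand breaks, and Brca1, of homologous recombination (0.47 ± 0.12, adjusted p = 0.00578). H2ax went from -0.77, -0.81, -0.72, -0.61 and -1.04 to 0.14, 0.18, 0.51, 0.20 and 0.21 (1.04 ± 0.14, adjusted p = 1.61e-05).

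The histone and chromatin list, which shares H2ax and Asf1b with these, had 20 measured members of 47, of which 9 were higher and 1 lower (median 0.38). Hmgn2, a nucleosome-binding protein, rose from -0.19, -0.72, -0.55, 0.07 and -0.35 on day 1 to 0.92, 1.05, 1.10, 1.53 and 0.76 on day 5 (1.42 ± 0.18, adjusted p = 9.95e-06). Its relative Hmgn1, named after its values were seen, was the one member that fell (-0.88 ± 0.14, adjusted p = 9.01e-05), and for both genes the groups did not overlap. H2az1, a histone variant of promoters, rose by 1.16 ± 0.16 (adjusted p = 3.25e-05) and Anp32b, a histone chaperone, by 1.00 ± 0.16 (adjusted p = 7.85e-05).

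Mature B and plasma cell genes were lower on day 5: 6 of 12 measured members (27 listed), with none higher and a median of -0.69. Ms4a1, the B cell antigen CD20, read 0.15, 0.67, 0.40, 1.52 and 0.38 on day 1 and -3.34, -0.74, -3.46, -0.51 and -1.68 on day 5. The day 5 mice were spread over about 3 units on the log2 scale and all lay below the day 1 mice (-2.57 ± 0.40, 5.94-fold lower, adjusted p = 6.67e-05). Cd22, an inhibitory co-receptor of the B cell receptor, showed a tighter fall, from 0.37, 0.22, 0.29, 0.20 and 0.30 to -1.07, -1.72, -0.78, -1.32 and -1.28 (-1.51 ± 0.13, adjusted p = 3.28e-08). Fcmr, the receptor for the Fc part of IgM, fell by 2.19 (SE 0.50, adjusted p = 0.0026). Here day 5 mouse 4 was at -4.75 while the other day 5 mice were at -0.21 to -1.42, and without it the difference was -1.38.

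Mzb1, a chaperone-associated protein of antibody-secreting cells (-1.49 ± 0.30, adjusted p = 0.00096; 4 against 5 mice), and Cd72, a B cell co-receptor (-1.41 ± 0.32, adjusted p = 0.00246), overlapped between groups because day 5 mouse 5 stood at 0.13 and 0.21. Over the 7 members measured in all 10 mice the list mean was 0.04, 0.40, 0.41, 0.38 and 0.24 on day 1 and -0.91, -0.77, -1.06, -1.46 and -0.42 on day 5. The list median was -1.24 without day 5 mouse 5, -1.19 without day 5 mouse 4, and -1.05 and -1.04 without day 1 mouse 2 and mouse 3. The smallest fall in the median over the alternatives was -0.48, after quantile normalization. Of the B cell precursor genes, which had 4 measured members of 20, the surrogate light chain genes Vpreb1 and Vpreb3 were not called. Vpreb1 read -0.16, -0.79, -0.59, -0.82 and -0.94 on day 1 and -0.01, -0.84, -0.62, -1.26 and -0.39 on day 5 (0.04 ± 0.22, adjusted p = 0.924; between -0.12 and 0.19 over the alternatives). On both days it was below controls, which stood at 0.49 ± 0.43 (adjusted p = 0.0013 for day 1 and 0.0036 for day 5). Vpreb3 differed by -0.75 ± 0.28 (adjusted p = 0.0509), and the one member called lower, named after its values were seen, was Bst1 (-0.58 ± 0.16, adjusted p = 0.0113).

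Antigen presentation genes had 11 measured members of 26, of which 3 were lower and none higher (median -0.33), where 13% of all genes and probes were lower. H2-Aa, the alpha chain of an MHC class II molecule of B cells, macrophages and dendritic cells, read 1.19, 0.41, 0.72, 1.03 and 0.53 on day 1 and -1.22, -1.29, -1.47, -1.87 and -0.64 on day 5 (difference -2.07 ± 0.18, 4.21-fold lower, adjusted p = 3.27e-08). The class I heavy chain gene H2-D1 (-0.76 ± 0.21, adjusted p = 0.00976, 3 against 4 mice) and the peptide transporter gene Tap1 (-0.73 ± 0.14, adjusted p = 0.000511) were the others. H2-D1 has close relatives in the MHC that a probe may also bind. Without day 1 mouse 1, 6 of the 11 were called (5 lower and 1 higher), and the list median was -0.19, -0.20 and -0.15 without day 1 mouse 2, 3 and 4.

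Interferon-stimulated genes were lower on day 5 in 9 of 17 measured members (56 listed), higher in 1, with a median of -0.36. The promoters of 2 genes that fell are shown because they hold a match to the interferon-stimulated response element. It was searched on both strands as a GAAA, any 2 bases and another GAAA, and matches are set in capitals. On the other strand it reads TTTC, 2 bases and TTTC.
Gbp2, chr3:142620413-142620712, plus strand: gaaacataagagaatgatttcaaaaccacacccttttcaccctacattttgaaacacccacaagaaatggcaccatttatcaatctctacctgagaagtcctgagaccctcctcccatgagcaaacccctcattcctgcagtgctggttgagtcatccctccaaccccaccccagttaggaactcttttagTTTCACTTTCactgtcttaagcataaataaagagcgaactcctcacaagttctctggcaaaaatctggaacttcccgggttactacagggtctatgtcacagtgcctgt
Ifih1, chr2:62646206-62646505, minus strand: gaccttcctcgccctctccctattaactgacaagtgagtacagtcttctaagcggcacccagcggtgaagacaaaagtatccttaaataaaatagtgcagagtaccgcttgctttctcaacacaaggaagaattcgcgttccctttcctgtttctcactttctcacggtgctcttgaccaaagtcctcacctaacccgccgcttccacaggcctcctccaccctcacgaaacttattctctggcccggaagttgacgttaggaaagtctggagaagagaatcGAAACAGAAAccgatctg
Of 5 genes of the list that fell and have a promoter entry, 2 held this element, as did 4 of the 6 that were not called, against 3.99% of all 27025 genes. Gbp2, an interferon-induced GTPase, read 0.59, 0.00, 0.48, 0.82 and 0.40 on day 1 and -0.34, -0.46, -0.59, -1.10 and -0.13 on day 5 (-0.98 ± 0.16, adjusted p = 0.000144). Ifih1, the double-stranded RNA sensor MDA5, went from 0.32, 0.72, 1.01, 0.48 and 0.74 to -0.07, -0.08, -0.28, -0.40 and -0.24 (-0.87 ± 0.12, adjusted p = 2.13e-05). Both genes were higher in all day 1 mice than in any day 5 mouse.

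The largest fall of this list was in the interferon-induced gene Rtp4, from 1.19, 0.70, 1.29, 1.29 and 1.01 to -0.97, -1.12, -1.36, -1.99 and -0.98 (-2.38 ± 0.18, 5.2-fold lower, adjusted p = 4.61e-09). Ifi27l2a, a small mitochondrial protein induced by interferon, fell by 1.56 (SE 0.27, adjusted p = 0.000223), and Oasl2, an antiviral oligoadenylate synthetase-like protein, by 1.26 (SE 0.13, adjusted p = 5.66e-07). For Rtp4, Ifi27l2a and Gbp2 the day 1 mean did not differ detectably from controls (adjusted p = 0.13, 0.84 and 0.27), whereas day 5 was below controls (adjusted p = 1.3e-07, 0.0006 and 4.9e-05). For Ifih1 it was the other way round, with day 1 above controls (adjusted p = 0.0022) and day 5 not detectably different from them (adjusted p = 0.37). The one member that rose was Ifitm2, an interferon-induced transmembrane protein named here after its values were seen (0.82 ± 0.20, adjusted p = 0.0036). Over 11 members measured in all 10 mice the list mean was 0.50, 0.30, 0.63, 0.40 and 0.47 on day 1 and -0.14, -0.21, -0.26, -0.63 and -0.18 on day 5.

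Resident macrophage and complement genes had a median of -0.86, and 7 of 8 measured members (35 listed) were lower and none higher. C1qb, a chain of the complement component C1q that tissue macrophages make, read 1.11, 0.94, 1.39, 1.11 and 1.67 on day 1 and -0.94, -0.98, -0.91, -0.85 and -0.14 on day 5 (-2.01 ± 0.31, 4.02-fold lower, adjusted p = 6.67e-05). The day 1 mice ranged from 0.94 to 1.67, 4 of the day 5 mice lay close together, and day 5 mouse 5 lay between. C1qa fell by 1.46 (SE 0.29, adjusted p = 0.00106; 3 against 4 mice), Serping1, the C1 inhibitor, by 0.96 (SE 0.12, adjusted p = 1.29e-05), the iron exporter gene Slc40a1 by 0.88 (SE 0.18, adjusted p = 0.00106) and Adgre1, the macrophage antigen F4/80, by 0.84 (SE 0.12, adjusted p = 3.01e-05). Siglec1, the sialic acid receptor of marrow macrophages, differed by -0.39 ± 0.14 (adjusted p = 0.0432) with overlapping groups and was not called in 14 of 26 alternatives, and its largest group mean was that of day 2 (1.15 ± 0.31, mean ± SD). When day 1 mouse 4 was left out, 4 of 7 measured members were called.

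Some genes of vessels and stroma were also lower. Of 8 measured endothelial genes (30 listed), 3 fell (median -0.34, and -0.22 without day 1 mouse 3). Of 13 measured stromal and bone-forming genes (45 listed), 7 fell (median -0.33, and -0.51 without day 5 mouse 4). None rose in either list. Plvap, of the diaphragms of fenestrated endothelium, went from 0.71, 0.22, 0.08, 0.75 and 0.97 to -0.21, -0.27, -0.36, -0.52 and -0.23 (-0.87 ± 0.18, adjusted p = 0.00147). The VEGF receptor gene Flt1 fell by 0.62 (SE 0.15, adjusted p = 0.00378) and the matrix gene Sparcl1 by 0.43 (SE 0.14, adjusted p = 0.0372; 3 against 4 mice). Cxcl12, the chemokine with which marrow stroma holds stem cells and B cell precursors, read 0.53, -0.23, 0.01, 0.60 and 1.16 and then -0.87, -0.45, -1.07, -1.03 and -0.14, with overlap (-1.12 ± 0.31, adjusted p = 0.00916). Fstl1, a secreted glycoprotein of mesenchymal cells, was tighter, at 0.89, 0.85, 0.85, 0.36 and 0.87 against -0.13, 0.04, 0.03, -0.38 and -0.19 (-0.89 ± 0.12, adjusted p = 1.11e-05). The collagen gene Col5a2 (-0.79 ± 0.18), the proteoglycan gene Bgn (-0.69 ± 0.24, 4 against 3 mice) and the adipocyte hormone gene Adipoq (-0.52 ± 0.15) were the next of the 7 falls by size (adjusted p = 0.00199, 0.0413 and 0.0133). Bgn was not called without day 1 mouse 2 or 4. Sparcl1 was not called in 7 of 18 alternatives, among them without day 5 mouse 2 or 4, with scaled arrays and after quantile normalization. In these 8 vessel and stroma genes day 5 did not differ detectably from controls, with adjusted p from 0.64 for Col5a2 to 1 for Adipoq and Sparcl1.

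Of 7 measured megakaryocyte and platelet genes (32 listed), 3 were lower and none higher (median -0.24, and -0.14 without day 1 mouse 4). Ppbp, a platelet chemokine, read 0.00, 0.03, 0.13, 0.81 and 0.56 on day 1 and -1.02, -0.72, -0.78, -1.09 and -0.36 on day 5 (-1.10 ± 0.21, adjusted p = 0.000465). Plek, pleckstrin of platelets and leukocytes, differed by -1.08 ± 0.17 (adjusted p = 8.86e-05) and F2rl2, a thrombin receptor gene, by -0.44 ± 0.11 (adjusted p = 0.00679).

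None of the 12 measured erythroid membrane and surface genes (41 listed) was called by limma, 2 had an unadjusted p under 0.05, and their median was 0.30 (0.11 without day 1 mouse 5 and 0.20 without day 5 mouse 5). Btnl10, a butyrophilin-like gene of erythroid cells, had the smallest p, with -0.60, -1.54, -1.46, -1.06 and -1.43 on day 1 and -0.16, -0.19, -0.38, -1.97 and -0.19 on day 5 (0.64 ± 0.26, adjusted p = 0.0729). Day 5 mouse 4 lay below every day 1 mouse while the other 4 lay above them, and without it Btnl10 differed by 0.99 and 5 of the 12 genes were called higher. Leaving out day 1 mouse 1, 1 was. Hba-a1, an alpha globin gene, gave -0.09 ± 0.26 (adjusted p = 0.849), but on 29 of the 40 arrays its value was one that many bright probes shared, as at a scanner's ceiling, so its change cannot be read.

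Haem synthesis and iron genes had 17 measured members of 33, with 5 lower and none higher, while their median was 0.04 and turned to -0.03 without day 1 mouse 2, with arrays scaled to a common spread and after quantile normalization. Alas2, the erythroid enzyme that starts haem synthesis, read 0.59, 0.43, 0.70, 1.58 and 0.46 on day 1 and -0.43, -0.97, -0.55, -1.66 and -0.82 on day 5 (-1.64 ± 0.21, 3.11-fold lower, adjusted p = 1.14e-05). Its control mean was -0.61 ± 0.19, below day 1 (adjusted p = 0.00048) and not detectably different from day 5 (adjusted p = 0.77). Isca1, of iron-sulphur cluster assembly (-0.93 ± 0.15), Ftl1, the ferritin light chain (-0.72 ± 0.19, 3 against 4 mice), and Ncoa4, the receptor for ferritin breakdown (-0.66 ± 0.18), fell as well (adjusted p = 0.000114, 0.00746 and 0.00758), as did Slc40a1 above.

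**Figure D3:**
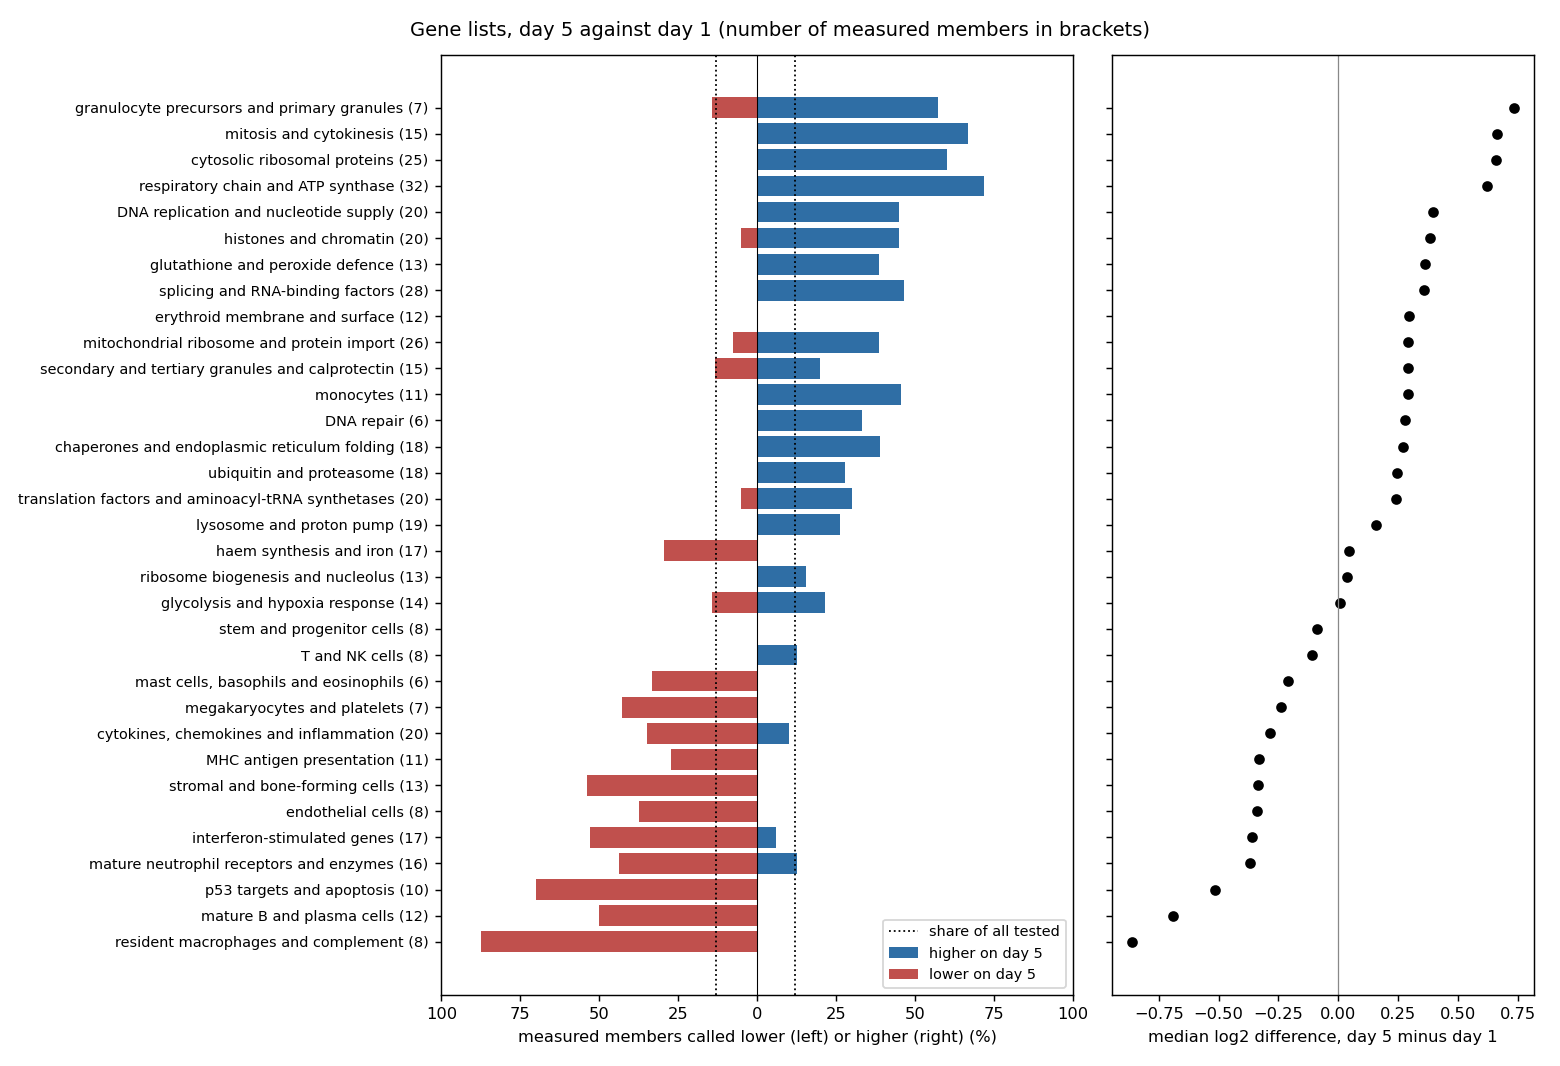
Left, the share of measured members of each of 33 gene lists called lower (red, leftwards) or higher (blue, rightwards) on day 5 at an adjusted p under 0.05, with dotted lines at the 13% and 12% of all genes and probes tested. The right panel gives the list's median log2 difference. Resident macrophages, B cells and p53 targets are at the bottom, and granulocyte precursors, mitosis, ribosomal proteins and the respiratory chain at the top.

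The respiratory chain and ATP synthase had 23 of 32 measured subunits higher (78 listed) and none lower, with a median of 0.62. In 15 of the 32 the groups did not overlap, beside 8.23% of all genes and probes with day 5 higher. Ndufv2, a subunit of the NADH-binding module of complex I, had the clearest separation of those named, from -0.19, -0.88, -0.43, -0.68 and -0.44 to 0.43, 0.28, 0.56, 0.81 and 0.33 (1.01 ± 0.12, adjusted p = 4.9e-06). The complex I subunits Ndufc1 (1.04 ± 0.22), Ndufa5 (1.03 ± 0.23) and Ndufb2 (1.02 ± 0.21) and the complex III subunit Uqcrb (0.99 ± 0.25) also rose (adjusted p = 0.00108, 0.00176, 0.000954 and 0.00517), and day 1 mouse 4 was the lowest of the day 1 mice in each. Ndufa5, for example, was -2.01 in day 1 mouse 4 and -0.32, -0.70, -0.51 and -0.34 in the others, against 0.25, 0.20, 0.45, 0.36 and 0.00 on day 5. Over 27 members measured in all 10 mice the mean was -0.06, -0.45, -0.26, -0.82 and -0.15 on day 1 and 0.16, 0.32, 0.40, 0.32 and 0.23 on day 5. With day 1 mouse 4 left out, 21 of 32 were called and the median was 0.53.

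Cytosolic ribosomal protein genes gave 15 of 25 measured members higher (79 listed) and none lower, with a median of 0.66. The largest were Rpl39 (1.32 ± 0.32, adjusted p = 0.0041), Rpl36a (1.31 ± 0.36, adjusted p = 0.0128; 3 against 3 mice), Rpl28 (1.18 ± 0.21, adjusted p = 0.000272), Rps18 (1.17 ± 0.19, adjusted p = 0.000143) and Rpl15 (0.87 ± 0.18, adjusted p = 0.000905). Rps18, of the small subunit, read 0.07, -0.47, -0.10, -1.19 and -0.03 on day 1 and 0.29, 0.74, 0.80, 1.23 and 1.07 on day 5, again with day 1 mouse 4 lowest. The mean of 20 members measured in all 10 mice was -0.03, -0.46, -0.14, -0.84 and -0.08 on day 1 and 0.21, 0.58, 0.35, 0.19 and 0.40 on day 5. The count was 9 of 22 without day 1 mouse 2 and 10 of 22 without day 1 mouse 4 (median 0.52). Ribosomal protein genes have many processed pseudogenes, and several of their probes sat at the shared bright value on some arrays, so single members are uncertain.

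Splicing and RNA-binding factors were higher in 13 of 28 measured members (62 listed) and lower in none (median 0.36). They were led by Snrpg (0.86 ± 0.19), Hnrnpu (0.79 ± 0.15, 3 against 4 mice), Snrpd1 (0.73 ± 0.18), Lsm4 (0.72 ± 0.12) and Snrpe (0.70 ± 0.16), 4 of which are proteins of the spliceosomal and related small ribonucleoproteins (adjusted p from 0.000198 to 0.00537). The count was 8 of 24 when day 1 mouse 2 was left out. The mitochondrial ribosome and import list had 10 of 26 measured members higher (90 listed) and 2 lower, with a median of 0.29. Of the ribosome, Mrpl18 (0.70 ± 0.15, adjusted p = 0.00132), Mrpl52 (0.63 ± 0.16, adjusted p = 0.00583) and Mrps18c (0.60 ± 0.16, adjusted p = 0.00736) rose most. The pair that fell, named after their values were seen, was Mrps11 (-0.36 ± 0.12, adjusted p = 0.0354) and Mrps14 (-0.36 ± 0.12, adjusted p = 0.0331), both with overlapping groups. No member was called lower without day 1 mouse 2, 3 or 5 or day 5 mouse 2, with only the 10 mice of both days in the fit, with arrays scaled to a common spread or after quantile normalization. Leaving out day 1 mouse 5, 7 of 25 members were called.

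Translation factors and tRNA synthetases had 6 of 20 measured members higher (56 listed) and 1 lower (median 0.24). The initiation factor 3 subunit Eif3k (0.78 ± 0.17, adjusted p = 0.00149) and the elongation factor subunit Eef1b2 (0.72 ± 0.16, adjusted p = 0.00219) led it, and the member that fell was Eif6 (-0.40 ± 0.13, adjusted p = 0.0292; 4 against 4 mice), which keeps ribosomal subunits apart and was named after its values were seen. No member was called lower without day 1 mouse 1 or 2 or day 5 mouse 3 or 5, on either technical array alone, with only the 10 mice of both days in the fit, with scaled arrays or after quantile normalization. Only 4 members were called without day 1 mouse 2 or without any 1 of day 5 mice 2, 3, 4 and 5. Ribosome biogenesis genes had 2 of 13 measured members higher (43 listed) and none lower, a share close to that of all genes, with a median of 0.04 (-0.07 without day 5 mouse 3). They were Utp20 (0.67 ± 0.17, adjusted p = 0.00504) and Rrs1 (0.56 ± 0.17, adjusted p = 0.0226), both needed for making ribosomal subunits, and 1 remained called without day 1 mouse 2, day 1 mouse 3, day 5 mouse 1 or day 5 mouse 3.

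Genes of protein folding in the endoplasmic reticulum were higher in 7 of 18 measured members (53 listed) and lower in none (median 0.27). Sdf2l1, an endoplasmic reticulum chaperone component, read 0.20, -0.26, -0.29, -0.24 and 0.29 on day 1 and 0.87, 1.08, 1.24, 1.20 and 0.68 on day 5 (1.08 ± 0.16, adjusted p = 3.73e-05). Ssr2, of the translocon-associated complex (0.79 ± 0.10, adjusted p = 1.2e-05), and P4hb, protein disulphide isomerase (0.80 ± 0.19, adjusted p = 0.00474; 4 against 3 mice), rose as well. Among the largest rises outside the list were Krtcap2, a subunit of the oligosaccharyltransferase (1.19 ± 0.18, adjusted p = 4.17e-05), and Tmed3, a cargo receptor of early secretory vesicles (1.28 ± 0.16, adjusted p = 7.93e-06). Sec61g, of the translocon itself, was 0.73 ± 0.22 (adjusted p = 0.0196) with day 1 mouse 4 at -1.34, and was 0.47 and no longer called without that mouse. In the list, 4 members were called without day 5 mouse 2 or mouse 4.

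Ubiquitin and proteasome genes were higher in 5 of 18 measured members (51 listed) and lower in none (median 0.24), with Psmd13 (0.64 ± 0.17, adjusted p = 0.00598) and the catalytic subunit gene Psmb6 (0.52 ± 0.11, adjusted p = 0.000965) the largest. Lysosome and proton pump genes were higher in 5 of 19 (50 listed) and lower in none (median 0.16, which was 0.06 without day 5 mouse 4, 0.24 without day 1 mouse 3 and 0.26 without day 1 mouse 4). For both lists, the share of all genes and probes called higher was 12%. Atp6ap2, an accessory protein of the vacuolar proton pump, rose by 0.92 ± 0.17 (adjusted p = 0.000505), and outside the lysosome list the lysosomal sulphatase gene Arsb by 1.23 ± 0.12 (adjusted p = 2.69e-07). Arsb read -0.84, -1.24, -0.95, -0.61 and -0.57 on day 1 and 0.29, 0.53, 0.11, 0.40 and 0.60 on day 5, with no overlap.

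Glutathione and peroxide defence genes were higher in 5 of 13 measured members (33 listed) and lower in none (median 0.36, and 0.12 when 2 mice per group were enough). Mgst3, a microsomal glutathione transferase (0.86 ± 0.25, adjusted p = 0.0145), and the glutathione peroxidase genes Gpx1 (0.74 ± 0.12, adjusted p = 7.6e-05) and Gpx4 (0.58 ± 0.16, adjusted p = 0.00835) led it. In Mgst3, day 5 mouse 4 was at -1.78, below all day 1 mice, while the other day 5 mice were between -0.15 and 0.29. Thioredoxin (Txn1, 0.56 ± 0.18, adjusted p = 0.022) was 0.36 and no longer called without day 1 mouse 4. In the list, 3 members were called without day 1 mouse 4 or without day 5 mouse 3, and 2 with only the 10 mice of both days in the fit, where neither Mgst3 nor Txn1 was called. Of 14 measured glycolysis and hypoxia genes, 3 were higher and 2 lower, shares near the 12% and 13% of all genes and probes (36 listed; median 0.01, between -0.14 and 0.10 without single mice). The glycolytic enzymes Pgam1 (0.77 ± 0.18, adjusted p = 0.00284) and Aldoa (0.63 ± 0.14, adjusted p = 0.00171) and the disulphide oxidase gene Ero1a (0.61 ± 0.11, adjusted p = 0.000406) rose, whereas the oxygen sensor Egln3 (-0.58 ± 0.16, adjusted p = 0.00893) and the glucose transporter gene Slc2a1 (-0.48 ± 0.12, adjusted p = 0.00565) fell.

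Among cytokines and inflammatory genes, 7 of 20 measured members (42 listed) were lower and 2 higher (median -0.28). The list shares Il1b, Il1rn, Ccl6, Ccl9 and Cxcl12 with those above. The member that rose most was Tnfsf13, the B cell and plasma cell survival factor APRIL. It read -0.24, -0.31, -0.25, -0.63 and -0.13 on day 1 and 1.04, 1.39, 1.10, 2.07 and 1.28 on day 5 (1.69 ± 0.15, 3.23-fold, adjusted p = 4.22e-08). Every day 5 mouse was more than 1 unit above every day 1 mouse, and day 5 was also above controls, which stood at 0.26 ± 0.18 (adjusted p = 5.4e-05). Another 2 genes that rose are on no list: Dmkn, which encodes the secreted protein dermokine, by 1.79 ± 0.20 (adjusted p = 1.36e-06), and Gpc1, a heparan sulphate proteoglycan, by 1.33 ± 0.14 (adjusted p = 5.66e-07). Dmkn read 0.38, 0.01, 0.26, 0.11 and 0.83 on day 1 and 2.09, 1.62, 2.38, 2.60 and 1.84 on day 5, and its day 5 mean was far above the control mean of 0.02 ± 0.12 (adjusted p = 2.9e-07).

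Lists of the remaining cell types had few measured members. Of all genes and probes tested, 12% were called higher and 13% lower. None of 8 measured stem and progenitor genes (30 listed) was called by limma (median -0.09, and -0.02 without day 5 mouse 5), and 1 had an unadjusted p under 0.05, which was Il3ra (0.41 ± 0.15, adjusted p = 0.0578; 4 against 3 mice). Leaving out day 1 mouse 1 gave 1 call. Kit had too few values for a test. Of 8 measured T and NK cell genes (36 listed), Nkg7, which is also on the granulocyte precursor list, was the one called (median -0.11). Without day 1 mouse 1, 2 more were called lower, and without day 1 mouse 4 or day 5 mouse 2, 1 more. The median was -0.05 without day 5 mouse 4 and -0.23 without day 5 mouse 5. Of 6 measured mast cell, basophil and eosinophil genes (20 listed), the tryptase gene Tpsb2 (-0.55 ± 0.16, adjusted p = 0.0158) and Cd200r3 (-0.42 ± 0.14, adjusted p = 0.0266) were lower (list median -0.21, and -0.36 without day 1 mouse 1). Neither was called without day 1 mouse 2, day 1 mouse 3 or day 5 mouse 4, and 1 was without day 1 mouse 5 or day 5 mouse 3.

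Set beside the untreated and day 2 mice, the list means over members measured in all 20 mice showed how day 1 and day 5 stood on either side of control or on one side of it. For the 8 p53 target genes the means were -0.08 ± 0.09 in controls, 0.53 ± 0.22 on day 1, 0.51 ± 0.23 on day 2 and 0.00 ± 0.09 on day 5 (mean ± SD, n = 5 each), so that day 1 and day 2 were high and day 5 lay near control. The 11 mitosis genes, at 0.06 ± 0.13, -0.57 ± 0.15, -0.63 ± 0.21 and 0.10 ± 0.08, were low on day 1 and day 2 and near control on day 5. Resident macrophage genes (4 members) were at -0.02 ± 0.26, 0.61 ± 0.20, 1.03 ± 0.20 and -0.42 ± 0.17, with day 5 below control on the mean. The 10 interferon-stimulated genes were at 0.42 ± 0.16 in controls, 0.48 ± 0.14 on day 1 and 0.46 ± 0.13 on day 2, whereas day 5 mice stood at -0.31 ± 0.22. The 7 B and plasma cell genes were at -0.13 ± 0.03, 0.29 ± 0.16, 0.00 ± 0.07 and -0.93 ± 0.38 in the same order. In both lists day 5 was lowest. The 8 secondary granule genes were lowest on day 2 (-0.91 ± 0.17, against 0.08 ± 0.15 in controls, 0.02 ± 0.26 on day 1 and 0.31 ± 0.12 on day 5). The control and treated groups were compared with the same day 1 and day 5 mice, so these levels are a description beside the comparison and no further test of it.

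**Figure D4:**
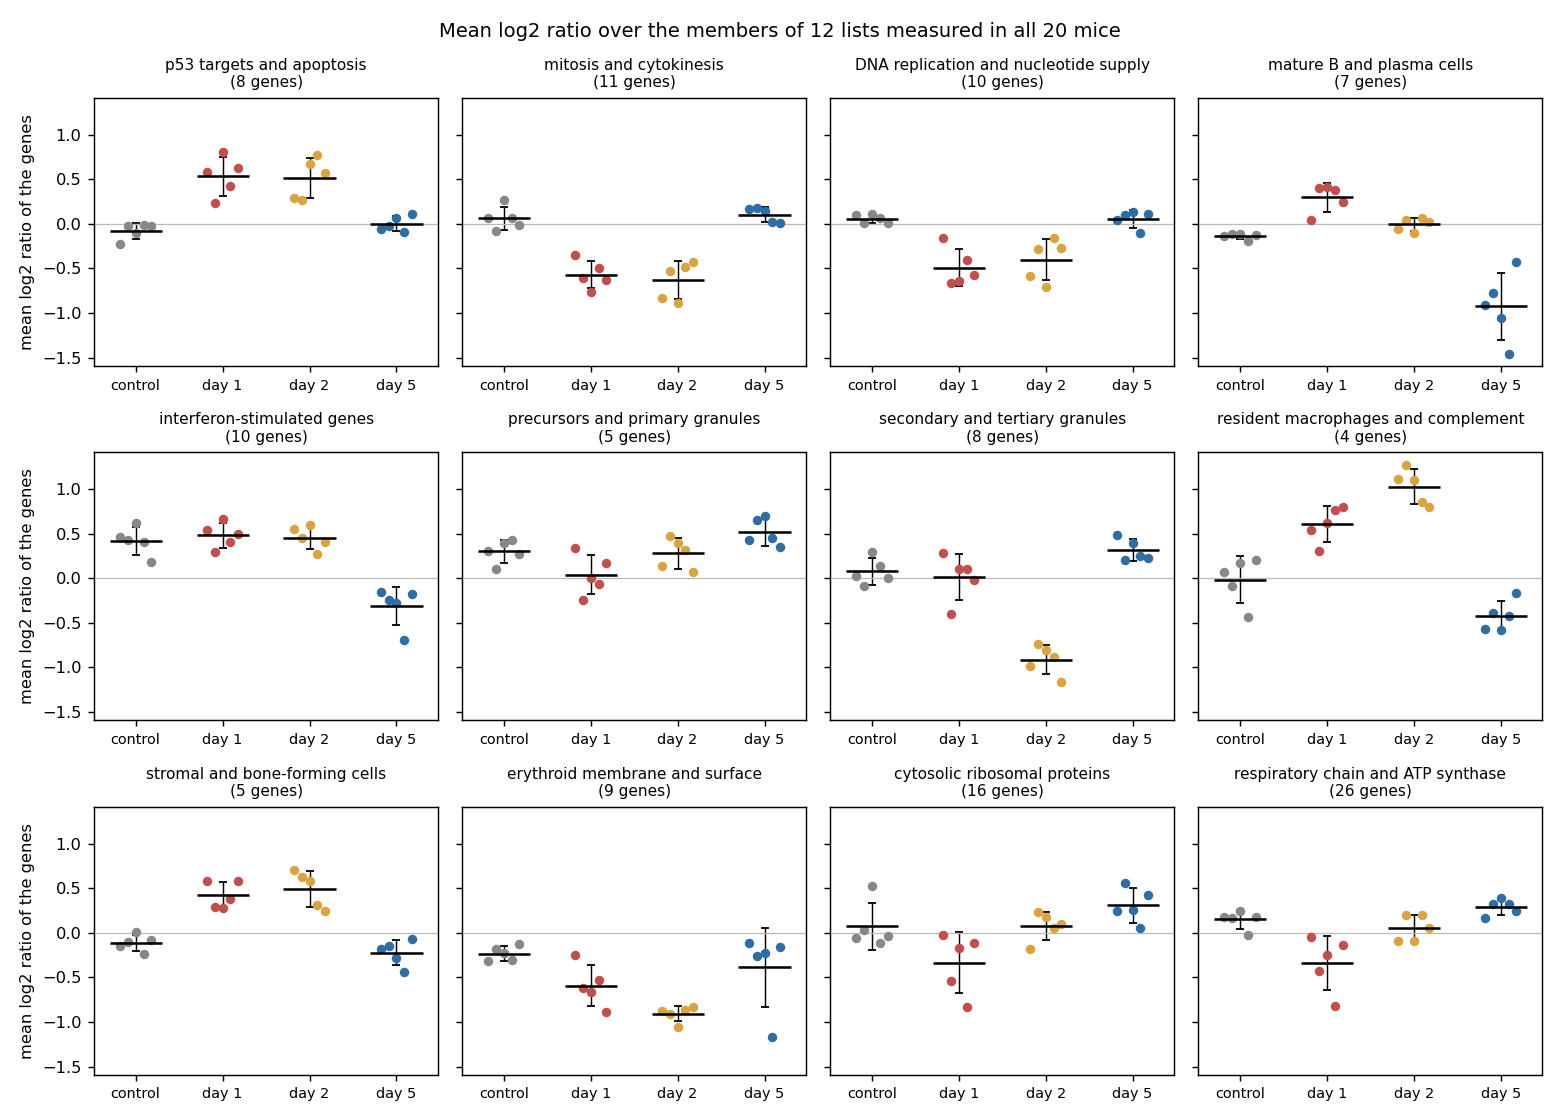
Mean log2 ratio over the members of 12 lists measured in all 20 mice (vertical axis, one scale for all panels) in each control, day 1, day 2 and day 5 mouse. Points are mice and bars group means with SD. B cell and interferon-stimulated genes are lowest on day 5, p53 targets are highest and mitosis genes lowest on days 1 and 2, and secondary granule genes are lowest on day 2.

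The fall of B cell, macrophage and stromal genes and the rise of precursor and housekeeping genes were measured in the same mice, and the part that a shift in the proportions of cells has in either was not tested. No gene was measured in all 5 day 5 mice and in no day 1 mouse. The reverse held for 6 genes and probes, 4 of them with a symbol (A130010J15Rik, Pate6, Dctn5 and Cox7a1), with day 1 means between -0.15 and 0.07.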

How the data were processed

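RNA of whole bone marrow cells was measured on 2-colour arrays in 20 mice of 4 groups, with 2 arrays per mouse. The values the authors deposited are log ratios, read as log2 of mouse over reference. Scanning, normalization, the filter that left values empty, the ratio's direction and its log base were not given in the sources used here. Arrays of a mouse were averaged, then the probes of a gene; 10032 of 13443 probes had 1 gene symbol in the platform annotation, 170 had several, 3241 had no entry, and 10030 matched a RefSeq gene. Probes without 1 symbol were tested unnamed, and 0 columns lacked a sample. Day 5 was compared with day 1 by limma 3.58.1 (R 4.3.3; 1 mean per group, all 20 mice, eBayes, Benjamini-Hochberg over 5392 genes and probes) with Python 3.11.15, numpy 2.4.6, pandas 2.3.3 and scipy 1.17.1. Comparisons with controls used the same pooled spread, so a wide spread in any group can hide a small difference between the others. Tested on simulated data for this comparison (5392 genes), 56% of 100 genes changed by 0.5 on the log2 scale and 99% of 100 changed by 1 were called, with 7 unchanged genes called. The simulated noise was normal and independent between genes, with no outlying mice. No other genes were changed, whereas 25% were called in the real data, so the real rates may differ.

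Named are the 15 largest rises and 15 largest falls among called genes whose groups do not overlap, up to 5 called members of each of 34 gene lists by size (the smallest p where none was called), and fixed genes. Ifitm2, Hmgn1, Eif6, Mrps11, Mrps14, Trem3 and Bst1 were named after their values were seen. The comparison and the lists were chosen with earlier results of these data known, so lists are described by counts and medians without a test. Lists with fewer than 5 measured members are given as values. Promoter sequences and gene names are from RefSeq (GRCm38.p6), chromosome 18 not used here. Alternatives were leaving out each mouse, other filters, single arrays, scaling, quantile normalization, a replicate block, probe number as a covariate and another moderation, and the removal of mouse pairs, which was chosen after seeing the data.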

Additional observations from a re-analysis of the deposited data

Results flagged for a closer look

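Single mice stood apart from the others of their group in 32 of 272 groups of values tested, where the gap to the nearest mouse took up an unusually large part of the group's range. Chance gives about 1 in 20 such groups, or 13.6. The groups of values come from the same mice and from genes that can move together. They are not independent, so 13.6 is a rough guide only. Of the 32, 13 were in day 1 mouse 4. It was the lowest day 1 mouse for 8 genes of the respiratory chain, secretory pathway, splicing and mitochondrial ribosome or import: Ndufa5 at -2.01, Ndufc1 at -1.65, Ndufb2 at -1.57, Tomm6 at -1.36, Sec61g at -1.34, Krtcap2 at -1.31, Mrpl52 at -1.14 and Snrpe at -0.784, where the next mouse was at -0.275 to -0.697. It was the highest for the haem synthesis gene Alas2 at 1.58, the gelatinase gene Mmp9 at 1.03, the chemokine gene Ccl6 at 0.907 and the condensin gene Smc4 at -0.46, and the lowest for the secreted glycoprotein gene Fstl1 at 0.364. Day 1 mouse 1 was high for the collagen gene Col5a2 at 1.21 and for the surrogate light chain gene Vpreb3 at -0.0191.

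Day 5 mouse 4 was low for the IgM receptor gene Fcmr at -4.75 (next mouse -1.42), Btnl10 at -1.97 (next mouse -0.385), Mgst3 at -1.78, Col5a2 at -0.677 and Pgam1 at -0.287, and high for Aldoa at 1.13. Day 5 mouse 5 was high for C1qb at -0.135, C1qa at -0.13 and Mzb1 at 0.134 (next mouse -1.74), and had the most probes measured, 7710 against 5613 in the next mouse. Its 2 technical arrays correlated at 0.68, the lowest of all mice, against 0.88 to 0.95 in the other day 5 mice. Its mean correlation with the other day 5 mice, 0.51, was the lowest of that group. Day 5 mouse 1 was low for Lgals1 at 0.581, Nkg7 at 0.325, Rpl28 at 0.269 and Lsm4 at -0.114. Day 5 mouse 3 was high for F13a1 at 0.903, H2ax at 0.514 and Mrpl52 at 0.573.

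Of 66 list means tested in the same way 5 had such a mouse, where chance gives 3.3, again over values that are not independent. In day 5 mouse 4 the mean of interferon-stimulated genes was -0.633, that of erythroid genes -1.17 and that of haem and iron genes -0.612, each the lowest of its group. The mean of mast cell, basophil and eosinophil genes was -0.293 in day 5 mouse 3, and that of cytokine genes was -0.0137 in day 1 mouse 2.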

How the results depend on the processing

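The count of 1348 genes and probes called between day 5 and day 1 ranged from 974 to 1602 over 26 alternatives, and from 974 (without day 1 mouse 2) to 1568 when single mice were left out. It was 1050 with only the 10 mice of both days in the fit, 1190 with arrays scaled to a common spread (589 higher, 601 lower), 1224 after quantile normalization (587 higher, 637 lower) and 1314 with probe number as a covariate. The replicate numbers do not pair the mice: same-numbered mice of the 2 days deviated with correlations from -0.21 to 0.09, and number 4 alone correlated best with its own number. With the replicate block 1299 were called (631 higher, 668 lower). Of 143 named genes 135 were called, 113 of them in every alternative that tested them, and 0 of the 135 changed sign under any alternative; Vpreb1, which was not called, did. The other 22 were lost at least once, most often Siglec1, Gsto1 and Eif3f (14 alternatives each) and Lyz2 and S100a9 (13 each). Medians of 3 lists changed sign (glycolysis, haem and iron, ribosome biogenesis); the cause was not tested. Over members measured in all 5 mice of both groups the list median was 0.99 for monocytes, -1.41 for mature B and plasma cells, -0.76 for megakaryocytes, -0.61 for interferon-stimulated genes and -0.56 for stroma. On 36 of 40 arrays 652 values (0.276%) of bright probes sat at 1 shared value, among them Ngp on 13 arrays and Rps23 on 24. With such values left out 1347 genes and probes were called, but changes of the genes at that value remain uncertain.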
